A study of Rattus norvegicus with 27 samples.

Results

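The circadian clock genes described here are Per1, Per2, Per3, Arntl (also called Bmal1), Clock, Npas2, Cry1, Cry2, Dbp and Nr1d2, chosen by name. Probes that were not control spots and carried one of these 10 names were taken whatever their signal, which gave 12 probes of 41012. Per3 had 3 probes and every other gene had 1. RNA came from 3 brain regions (hippocampus, prefrontal cortex, striatum) of male rats aged 10 weeks. Goto-Kakizaki rats, an inbred line bred from Wistar rats as a model of type 2 diabetes, had a blood sugar of 13.9 mmol/l. Streptozotocin-treated Wistar rats, a model of type 1 diabetes in which an injected toxin destroys the insulin-producing cells of the pancreas, had received 65 mg/kg at 6 weeks of age, were killed 4 weeks later and had 26.34 mmol/l. Untreated Wistar controls had 7.64 mmol/l. The methods describe decapitation under phenobarbital anaesthesia for the animals of each group, but also give cervical dislocation for the streptozotocin-treated rats, so that the manner of killing in that group is not settled. Each of the 9 combinations of region and animal group was represented by 3 pools of 3 animals, with 1 Agilent one-colour array per pool, 27 arrays in all. Strain and diabetes cannot be told apart when Goto-Kakizaki rats are set against Wistar rats, and the hour of killing, which sets the phase at which clock transcripts are sampled, is not given in the sources used here.

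In mammals the clock runs as a loop of transcription and feedback. Arntl pairs with Clock, or in parts of the forebrain with its relative Npas2, and the pair binds E-box sequences and switches on the Per and Cry genes, whose proteins return to the nucleus and restrain the pair. A side loop runs through Nr1d2 (Rev-erb beta), a nuclear receptor that represses Arntl, and the output factor Dbp, which binds D-box sequences and is itself driven from E-boxes. Nearly every tissue holds such a clock, the brain included, so that transcript levels in a sample depend on the hour as well as on the tissue.

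Sequences are shown for the probes that carry the Per3 result and for 3 genes of the other arms, since a probe reports only the transcript stretch it matches. Below, the capitals mark a run of 22 bases that both Per3 probes contain, starting at base 18 of the first and at base 4 of the other, so that these probes do not read wholly separate stretches. The other 3 probes have no part in capitals.
Per3 A_43_P16143: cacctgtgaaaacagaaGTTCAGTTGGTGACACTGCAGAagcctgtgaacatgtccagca
Per3 A_44_P196198: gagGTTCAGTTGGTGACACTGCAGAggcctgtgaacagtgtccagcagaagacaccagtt
Clock A_43_P15473: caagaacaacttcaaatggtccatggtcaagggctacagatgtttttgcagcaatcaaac
Dbp A_44_P280898: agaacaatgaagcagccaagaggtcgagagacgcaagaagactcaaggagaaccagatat
Nr1d2 A_44_P395572: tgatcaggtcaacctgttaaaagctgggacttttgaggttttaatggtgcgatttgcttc

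RefSeq promoters of the GRCr8 build, 250 bases before to 50 after each gene's start, were found for 9 of the 10 genes. Cry1 had no entry. Both strands were searched for 4 clock-related motifs among 33469 promoters. The E-box letters CACGTG stood in 6.42% of all promoters and in 0 of the 9 members, and the cAMP response element letters TGACGTCA stood in 1.83% of all and in 0 of the 9, which says only that these letters are not in these windows. The D-box letters TTATGTAA or TTACGTAA stood in 1.01% of all promoters and in 1 member, Per2. The letters AGGTCA, the core read by the Rev-erb and ROR receptors, stood in 16.2% of all and in 2 members, Arntl and Nr1d2. These matches are shown in capitals, each in a window of 60 bases, for the members that had one: Per2, Arntl and Nr1d2. A match is not evidence that a factor binds.
Per2, chr9:99497152-99497211, minus strand, D-box beginning 192 bases before the start: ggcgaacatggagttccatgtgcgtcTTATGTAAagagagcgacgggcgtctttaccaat
Arntl, chr1:176766268-176766327, plus strand, AGGTCA beginning 15 bases before the start: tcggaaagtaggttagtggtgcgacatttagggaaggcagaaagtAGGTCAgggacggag
Nr1d2, chr15:9954820-9954879, plus strand, AGGTCA beginning 187 bases before the start: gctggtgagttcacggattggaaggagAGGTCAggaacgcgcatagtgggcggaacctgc

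Levels are log2 processed signals minus the log2 of the 75th percentile of the same array, so that 0 stands for a probe as bright as that percentile. Different probes have different binding strength, and a level is set only against the same probe on other arrays. All 27 arrays detected 9 of the 12 probes well above background. Clock was above it on 16 arrays, Per3 A_43_P16143 on 22 and Per3 A_44_P407318 on 0 of 27. This last probe, at -8.15 to -6.62, was not tested. No member was saturated on any array. A region's tests took in a probe if some group of that region had 2 or more of its 3 arrays clearly brighter than background for it, which left 11 member probes for all 10 genes. "Changed", "higher" and "lower" of a called difference mean an adjusted p under 0.05 from the limma fit of 9 group means, with Benjamini-Hochberg adjustment over all probes tested in that comparison. Since the samples are pools, these p-values measure the spread between pools, and the number of arrays limits the precision.

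The striatum carried its label clearly: the summed linear level of 7 striatal marker genes was 149 to 242 on the striatal arrays, against 6.29 to 20.4 in the prefrontal cortex and 2.8 to 3.75 in the hippocampus. Only 2 prefrontal markers, Rorb and Lamp5, had probes, and their sum was 4.73 to 9.13 in the prefrontal cortex, 3.61 to 6.11 in the striatum and 1.51 to 2.31 in the hippocampus. The 27 arrays lay on 7 slides that did not hold the groups evenly. On slides 5, 6 and 7 arrays of different groups deviated together from their group means (mean correlation over all probes of 0.468, 0.654 and 0.48, against -0.0294 between arrays of different slides). The control striatum pool 2, on slide 5, stood apart from the other 2 of its group.

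Clock genes passed the test more often between brain regions than between animal groups, and so did probes at large. In the 9 comparisons of animal groups within a region, 6 of 99 member values passed the test, of which 3 belonged to Per3, 2 to Arntl and 1 to Nr1d2. In the 9 comparisons of regions within an animal group, 49 of 99 passed. Of all tested probes, 2.2 to 16.1% passed in a comparison of animal groups and 15.7 to 39.8% in a comparison of regions. Against controls, the median size of the member differences in hippocampus, prefrontal cortex and striatum was 0.18, 0.22 and 0.30 in Goto-Kakizaki rats, beside 0.18, 0.22 and 0.27 over all probes, and 0.18, 0.22 and 0.18 in streptozotocin-treated rats, beside 0.18, 0.18 and 0.22. The member counts are given below beside the share of all tested probes that passed in the same comparison. Between animal groups the share of members was above that of all probes in Goto-Kakizaki against control hippocampus and streptozotocin against control striatum, near it in Goto-Kakizaki against control prefrontal cortex and below it in the other 6 comparisons. The hippocampal share counts 1 gene of 10, Per3, by 2 probes that share bases. In the streptozotocin striatum it is 1 probe of 11, the least that can pass. Neither count sets the members apart from all probes.

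**Figure D1:**
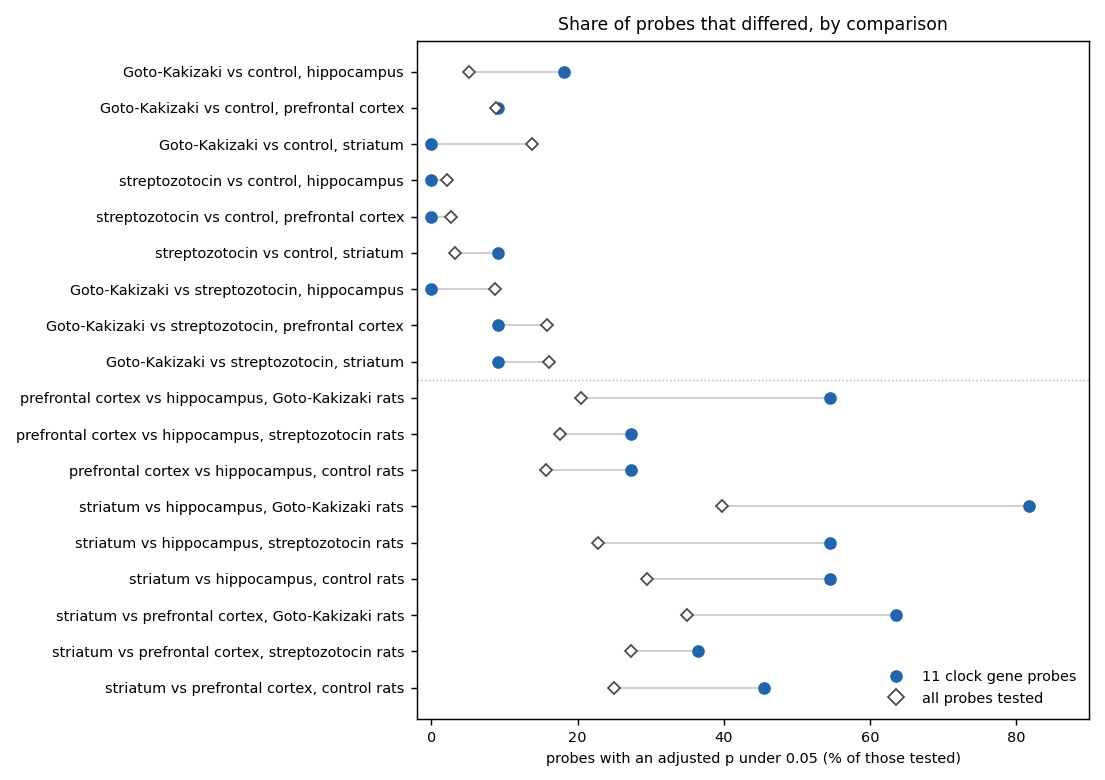
Share of probes that passed the limma test (adjusted p under 0.05, percent, horizontal axis) in each comparison, for the 11 member probes and for all tested probes. For animal groups the members' share lies between 0 and 18.2%, and for regions it lies between 27.3 and 81.8%, above the share of all probes in each of the 9 region comparisons.

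In the hippocampus of Goto-Kakizaki rats 2 of 11 member probes were lower than in controls and none was higher, where 5.11% of all 30678 tested probes passed. Both were Per3 probes, and A_43_P16143 entered the tests of this region through the control pools alone. Per3 is the third Period gene and is not needed for rhythms to persist in mice. Per3 A_44_P196198 lay at -4.28, -3.99 and -4.41 in the Goto-Kakizaki pools, at -3.74, -4.14 and -3.79 in the streptozotocin pools and at -3.70, -3.86 and -3.50 in the control pools. All 3 Goto-Kakizaki pools were below all 3 control pools, while the streptozotocin pools overlapped both. The difference of Goto-Kakizaki rats from controls was -0.54 (SE 0.14, 95% confidence interval -0.84 to -0.24, fold 0.688, adjusted p = 0.027). In bulk tissue, fewer cells that express a gene and less RNA per cell cannot be told apart.

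Per3 A_43_P16143 was at -6.23, -6.00 and -5.43 in the Goto-Kakizaki hippocampus, at -5.27, -5.55 and -4.80 in the streptozotocin hippocampus and at -5.00, -5.13 and -4.96 in the control hippocampus. The 3 Goto-Kakizaki pools again lay below every control pool. None of the Goto-Kakizaki arrays was well above background for this probe, 1 of the 3 streptozotocin arrays was, and all 3 control arrays were. Only the control group thus met the filter, and it was the highest group. A call of lower for a probe let in that way is not separate support for the other Per3 probe. The measured difference from controls was -0.85 (SE 0.24, 95% confidence interval -1.36 to -0.35, adjusted p = 0.043), and because the Goto-Kakizaki level is only a bound, it is given as at least 1.55-fold lower in Goto-Kakizaki rats. That bound takes the mean of the control pools over, per Goto-Kakizaki array, the higher of the probe's own signal and the lowest signal well above background.

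Neither hippocampal call was stable. Leaving out single pools ended the call of A_43_P16143 in 5 of 6 cases (Goto-Kakizaki pools 1 and 2, control pools 1, 2 and 3, adjusted p from 0.082 to 0.22), and that of A_44_P196198 in 4 of 6 (Goto-Kakizaki pools 1 and 3, control pools 1 and 3, adjusted p from 0.084 to 0.18). With slide as a block the differences were -0.88 (adjusted p = 0.025) and -0.55 (adjusted p = 0.12). On slide 2, which held 1 Goto-Kakizaki and 2 control hippocampus arrays, they were -1.25 for A_43_P16143 and -0.68 for A_44_P196198. With the replicate number as a block, A_44_P196198 had an adjusted p of 0.08. With normexp background correction the differences were -0.40 and -0.35 (adjusted p = 1.0 for both). The 5 choroid plexus markers summed to 155, 20.8 and 109 in the Goto-Kakizaki hippocampus pools, to 3.17 to 3.51 in the streptozotocin pools and to 2.56, 2.83 and 125 in the control pools, and the 4 oligodendrocyte markers to 191 to 209 in Goto-Kakizaki against 230 to 250 in control pools. Their part in the result was not tested.

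Among Goto-Kakizaki prefrontal cortex pools 1 of 11 member probes was lower than in controls and none was higher, where 8.8% of all probes passed. It was Per3 A_44_P196198, at -4.15, -4.05 and -4.00 in Goto-Kakizaki, -3.92, -3.87 and -4.07 in streptozotocin and -3.56, -3.59 and -3.30 in control pools. Both diabetic groups lay wholly below the controls. The Goto-Kakizaki difference was -0.59 (SE 0.14, 95% confidence interval -0.88 to -0.29, fold 0.666, adjusted p = 0.011), while the streptozotocin difference of -0.47 (95% confidence interval -0.77 to -0.18) had an adjusted p of 0.079. Per3 A_43_P16143, at -5.01, -4.90 and -4.88 in Goto-Kakizaki, -5.18, -5.09 and -4.43 in streptozotocin and -4.80, -4.91 and -4.42 in control pools, gave -0.22 (adjusted p = 0.68) in Goto-Kakizaki rats. The Goto-Kakizaki and control pools overlapped for this probe, so that the 2 probes parted in this region.

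Some tissue markers moved with this comparison. The summed striatal markers were 9.82 to 11.6 in the Goto-Kakizaki prefrontal cortex, 7.91 to 9.07 in the streptozotocin and 14.2, 6.29 and 20.4 in the control prefrontal cortex, and 3 of the 7 markers were lower in Goto-Kakizaki rats and 2 of the 7 in streptozotocin-treated rats. Oligodendrocyte markers summed to 89.3 to 107 in Goto-Kakizaki, 98 to 106 in streptozotocin and 119 to 149 in control pools. Of the 4, 2 were lower in Goto-Kakizaki rats and 1 in streptozotocin-treated rats. The 2 prefrontal markers summed to 6.9 to 9.13 in Goto-Kakizaki, 5.91 to 6.43 in streptozotocin and 4.73 to 6.94 in control pools. Of these, 1 was higher in Goto-Kakizaki rats. Endothelial markers summed to 13 to 13.9 in Goto-Kakizaki and 9.91 to 10.7 in control pools. None of the 3 endothelial genes passed, however, and their median difference was -0.01. Their part in the result was not tested. Without control pool 3, the one with most striatal marker signal, the Per3 difference was -0.49 (adjusted p = 0.077), and with slide as a block it was -0.63 (adjusted p = 0.064). With normexp background correction it was -0.22 (adjusted p = 1.0). Goto-Kakizaki and control prefrontal cortex arrays shared no slide.

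In the striatum none of the 11 probes passed in Goto-Kakizaki rats against controls, where 13.8% of all probes passed. At an unadjusted p under 0.05 there were 5, and the methods' t-test gave 0 both with and without adjustment. Per3 A_44_P196198 was at -3.18, -2.86 and -3.24 in Goto-Kakizaki, -2.99, -3.22 and -3.17 in streptozotocin and -2.82, -2.93 and -2.59 in control pools, a difference of -0.31 for Goto-Kakizaki rats (95% confidence interval -0.61 to -0.02, adjusted p = 0.15) and -0.34 for streptozotocin-treated rats (95% confidence interval -0.64 to -0.05, adjusted p = 0.20). The Goto-Kakizaki and control pools overlapped by 1 pool, and the streptozotocin pools lay below all controls. Per3 A_43_P16143 ranged from -4.46 to -4.21 in Goto-Kakizaki, from -4.84 to -4.17 in streptozotocin and from -4.58 to -3.89 in control striatum, with all groups overlapping.

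Across the 6 comparisons with controls, both Per3 probes had a negative difference each time, from -0.59 to -0.20 for A_44_P196198 and from -0.85 to -0.16 for A_43_P16143. These comparisons share the control pools of each region, and the probes share bases, so that the signs are not separate observations. In streptozotocin-treated rats neither probe passed in any region.

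**Figure D2:**
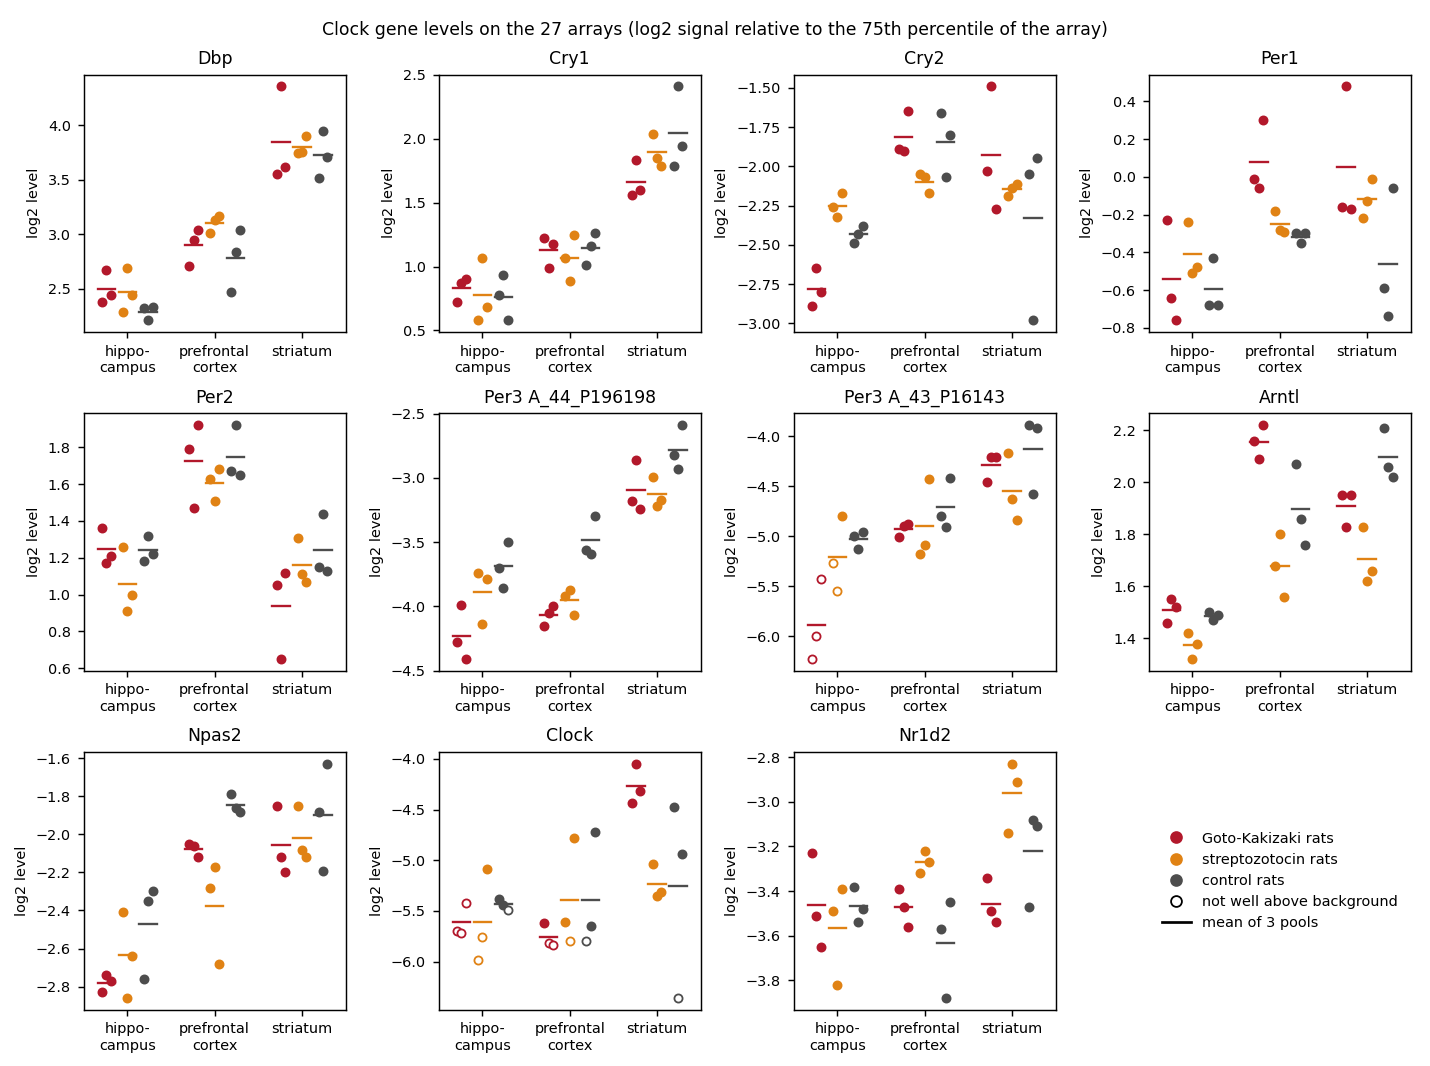
Level of each of the 11 tested member probes (log2 signal relative to the 75th percentile of the array, vertical axis) in every pool, by region and animal group, with a bar at the mean of the 3 pools and open points for arrays not well above background. Dbp and Cry1 stand highest in the striatum in every animal group, and Per3 A_44_P196198 lies lower in the Goto-Kakizaki than in the control pools of the hippocampus and prefrontal cortex.

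The other negative regulators, Per1, Per2, Cry1 and Cry2, had no called difference between animal groups in any region. Per1, the Period gene most readily induced by light and stress hormones, was at -0.01, -0.06 and 0.30 in the Goto-Kakizaki, -0.18, -0.28 and -0.29 in the streptozotocin and -0.30, -0.35 and -0.30 in the control prefrontal cortex (Goto-Kakizaki difference 0.39, 95% confidence interval 0.02 to 0.77, adjusted p = 0.21). In the striatum it was at -0.16, 0.48 and -0.17 in Goto-Kakizaki, -0.22, -0.13 and -0.01 in streptozotocin and -0.59, -0.74 and -0.06 in control pools. The difference there was 0.51 for Goto-Kakizaki rats (95% confidence interval 0.14 to 0.89, adjusted p = 0.063). Goto-Kakizaki pools lay above all controls in the prefrontal cortex, whereas 1 control pool overlapped them in the striatum, and without that pool, control 3, the striatal difference was 0.72 (adjusted p = 0.015). It also passed without Goto-Kakizaki pool 1 (adjusted p = 0.04) or pool 3 (adjusted p = 0.047), and was 0.30 (adjusted p = 0.29) without Goto-Kakizaki pool 2, the highest of its group. In the hippocampus Per1 ranged from -0.76 to -0.23 in Goto-Kakizaki, -0.51 to -0.24 in streptozotocin and -0.68 to -0.43 in control pools, with overlap.

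Per2, the second Period gene, differed little between animal groups. In the striatum it was at 1.05, 0.65 and 1.12 in Goto-Kakizaki, 1.31, 1.11 and 1.07 in streptozotocin and 1.15, 1.44 and 1.13 in control pools. All Goto-Kakizaki pools were below all controls by a small margin, with a difference of -0.30 (95% confidence interval -0.59 to 0, adjusted p = 0.17). In the other 2 regions its differences from controls lay between -0.18 and 0, and the largest of them had an adjusted p of 0.63.

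Cry1, a strong repressor of the Arntl pair, was at 1.56, 1.83 and 1.60 in Goto-Kakizaki striatum, 2.04, 1.85 and 1.79 in streptozotocin striatum and 1.79, 2.41 and 1.94 in control striatum. The Goto-Kakizaki and control pools overlapped, and the difference was -0.38 (95% confidence interval -0.70 to -0.05, adjusted p = 0.11). Without control pool 1 it was -0.51 (adjusted p = 0.042), without control pool 2 it was -0.20 (adjusted p = 0.48), and on slide 4, which held all 3 Goto-Kakizaki arrays and 1 control array, it was -0.12. In the hippocampus and prefrontal cortex no Cry1 difference from controls exceeded 0.07 in size.

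Cry2, the second cryptochrome, was at -2.89, -2.65 and -2.80 in the Goto-Kakizaki, -2.26, -2.32 and -2.17 in the streptozotocin and -2.49, -2.43 and -2.38 in the control hippocampus. The 3 groups did not overlap, with streptozotocin highest and Goto-Kakizaki lowest, yet neither the Goto-Kakizaki difference from controls of -0.35 (adjusted p = 0.46) nor that from streptozotocin-treated rats of -0.53 (adjusted p = 0.12) passed in the fit of all 9 groups. Both passed with the hippocampus fitted alone (adjusted p = 0.033 and 0.0044) and with the 2 groups of each comparison fitted alone (adjusted p = 0.03 and 0.019), where the spread is estimated from fewer arrays. In the striatum 1 control pool, pool 2, lay at -2.98 while the other 8 striatal pools were between -2.27 and -1.49. Spread of Cry2 between pools of a group was accordingly larger in the striatum (SD 0.40) than in the hippocampus (SD 0.09).

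Among the activators, Arntl was called between the diabetic models in the prefrontal cortex alone, and against controls in the streptozotocin striatum alone. In mice its protein is the partner without which the clock stops. In the striatum Arntl was at 1.95, 1.83 and 1.95 in Goto-Kakizaki, 1.83, 1.62 and 1.66 in streptozotocin and 2.21, 2.06 and 2.02 in control pools. Streptozotocin pools were below all control pools, and the Goto-Kakizaki pools lay between, touching the streptozotocin range at its top. Of 11 member probes, Arntl was the only one that passed in streptozotocin striatum against control, where 3.25% of all probes passed. The difference was -0.40 (SE 0.09, 95% confidence interval -0.59 to -0.20, fold 0.76, adjusted p = 0.024). That call was lost on leaving out single pools in 3 of 6 cases (streptozotocin pools 2 and 3, control pool 1, adjusted p from 0.062 to 0.11) and with slide as a block (-0.39, adjusted p = 0.24). It was lost as well with normexp background correction (-0.12, adjusted p = 0.59). With the striatum fitted alone the adjusted p was 0.41, and with the 2 groups fitted alone it was 0.29. Streptozotocin and control striatum shared no slide.

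In the prefrontal cortex Arntl was at 2.16, 2.09 and 2.22 in Goto-Kakizaki, 1.68, 1.80 and 1.56 in streptozotocin and 2.07, 1.86 and 1.76 in control pools. Goto-Kakizaki pools were above every streptozotocin and every control pool. Against streptozotocin-treated rats it was the only member of 11 that passed, where 15.8% of all probes did, and it was higher by 0.47 (SE 0.09, 95% confidence interval 0.28 to 0.67, fold 1.39, adjusted p = 0.0018). This call held without each pool in turn and with slide as a block (0.43, adjusted p = 0.038), but not with the 2 groups fitted alone (adjusted p = 0.065) or by the methods' t-test after adjustment (0.14). Goto-Kakizaki and streptozotocin prefrontal cortex arrays shared no slide. Against controls the difference was 0.26 (95% confidence interval 0.06 to 0.45, adjusted p = 0.10), and it passed only without control pool 1 (0.34, adjusted p = 0.04). In the hippocampus Arntl stayed within a narrow band, at 1.46 to 1.55 in Goto-Kakizaki, 1.32 to 1.42 in streptozotocin and 1.47 to 1.5 in control pools, with no called difference.

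Clock, the usual partner of Arntl, was faint, and where arrays were not well above background its level is only a bound. In the striatum it was at -4.44, -4.05 and -4.32 in Goto-Kakizaki, -5.04, -5.35 and -5.31 in streptozotocin and -4.47, -6.36 and -4.94 in control pools, above background on 3, 3 and 2 arrays. All Goto-Kakizaki pools were above all others. The difference from controls was 0.99 (SE 0.36, 95% confidence interval 0.24 to 1.74, adjusted p = 0.074), and that from streptozotocin-treated rats was 0.96 (95% confidence interval 0.21 to 1.71, adjusted p = 0.069). The latter passed with the 2 groups fitted alone (adjusted p = 0.0093), where the spread is estimated from fewer arrays, and these groups shared no slide. The difference from controls moved with single control pools and was 1.38 (adjusted p = 0.013) without control pool 1 but 0.43 (adjusted p = 0.43) without pool 2, the faintest. On slide 4, which held all 3 Goto-Kakizaki arrays and 1 control array, it was 0.20, and with normexp background correction it was -0.44 (adjusted p = 0.60). In the hippocampus none of the Goto-Kakizaki arrays, 1 streptozotocin array and 2 control arrays were above background, and in the prefrontal cortex 1 Goto-Kakizaki, 2 streptozotocin and 2 control arrays were.

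Npas2, the forebrain relative of Clock, was at -2.05, -2.06 and -2.12 in Goto-Kakizaki, -2.28, -2.17 and -2.68 in streptozotocin and -1.79, -1.86 and -1.88 in control prefrontal cortex. The 3 groups did not overlap, with controls highest and streptozotocin lowest. The streptozotocin difference of -0.53 (SE 0.16, 95% confidence interval -0.86 to -0.20) had an adjusted p of 0.076, and the Goto-Kakizaki difference of -0.24 had one of 0.43. In the hippocampus, where Goto-Kakizaki and control pools overlapped, the difference was -0.31 (adjusted p = 0.37). No member passed in the streptozotocin prefrontal cortex against control, where 2.67% of all probes passed, although 4 were under an unadjusted p of 0.05, and the methods' t-test gave 0 with and 1 without adjustment. In the streptozotocin hippocampus against control, where 2.2% of all probes passed, 0 members passed and 0 were under an unadjusted p of 0.05, with 0 by the methods' t-test after adjustment and 2 without it.

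Of the output arm, Nr1d2 was called between the models in the striatum alone. It was at -3.34, -3.49 and -3.54 in Goto-Kakizaki, -3.14, -2.83 and -2.91 in streptozotocin and -3.47, -3.08 and -3.11 in control striatum. Goto-Kakizaki pools were below all streptozotocin pools and overlapped the controls. It was the only member of 11 that passed between the models there, where 16.1% of all probes passed, at -0.50 (SE 0.14, 95% confidence interval -0.79 to -0.21, fold 0.708, adjusted p = 0.023) for Goto-Kakizaki against streptozotocin. With slide as a block the difference was 0.01 (adjusted p = 1.0), the 2 groups shared no slide, and leaving out single pools ended the call in 4 of 6 cases (pools 2 and 3 of both groups, adjusted p from 0.051 to 0.10). It was also lost with the 2 groups fitted alone (adjusted p = 0.091). In the prefrontal cortex it was at -3.39, -3.47 and -3.56 in Goto-Kakizaki, -3.32, -3.22 and -3.27 in streptozotocin and -3.57, -3.88 and -3.45 in control pools, and the streptozotocin difference from controls was 0.36 (95% confidence interval 0.07 to 0.66, adjusted p = 0.19). Between the models in the hippocampus, where 8.7% of all probes passed, 0 members passed, 3 were under an unadjusted p of 0.05, and the methods' t-test gave 0 with and 2 without adjustment.

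Dbp had no called difference between animal groups. Its differences from controls lay between 0.07 and 0.32, all positive, the largest in the streptozotocin prefrontal cortex (95% confidence interval -0.05 to 0.70, adjusted p = 0.43), where it was at 3.01, 3.13 and 3.17 in streptozotocin, against 2.47, 2.84 and 3.04 in control pools. The lowest streptozotocin pool lay just below the highest control pool. Slides 5, 6 and 7 each held 1 array of either group, and on each the streptozotocin level was the larger, by 0.30, 0.13 and 0.54. With the replicate number as a block the adjusted p was 0.29. A shared sign on these slides was not particular to Dbp. Nr1d2 (0.66, 0.18 and 0.25) and Per1 were larger on each. Npas2 (-0.31, -0.8 and -0.49), Per3 A_44_P196198 (-0.28, -0.78 and -0.36), Per3 A_43_P16143 and Arntl were smaller on each. Per2, Clock and Cry1 differed in sign, and Cry2 was 0 on slide 5.

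**Figure D3:**
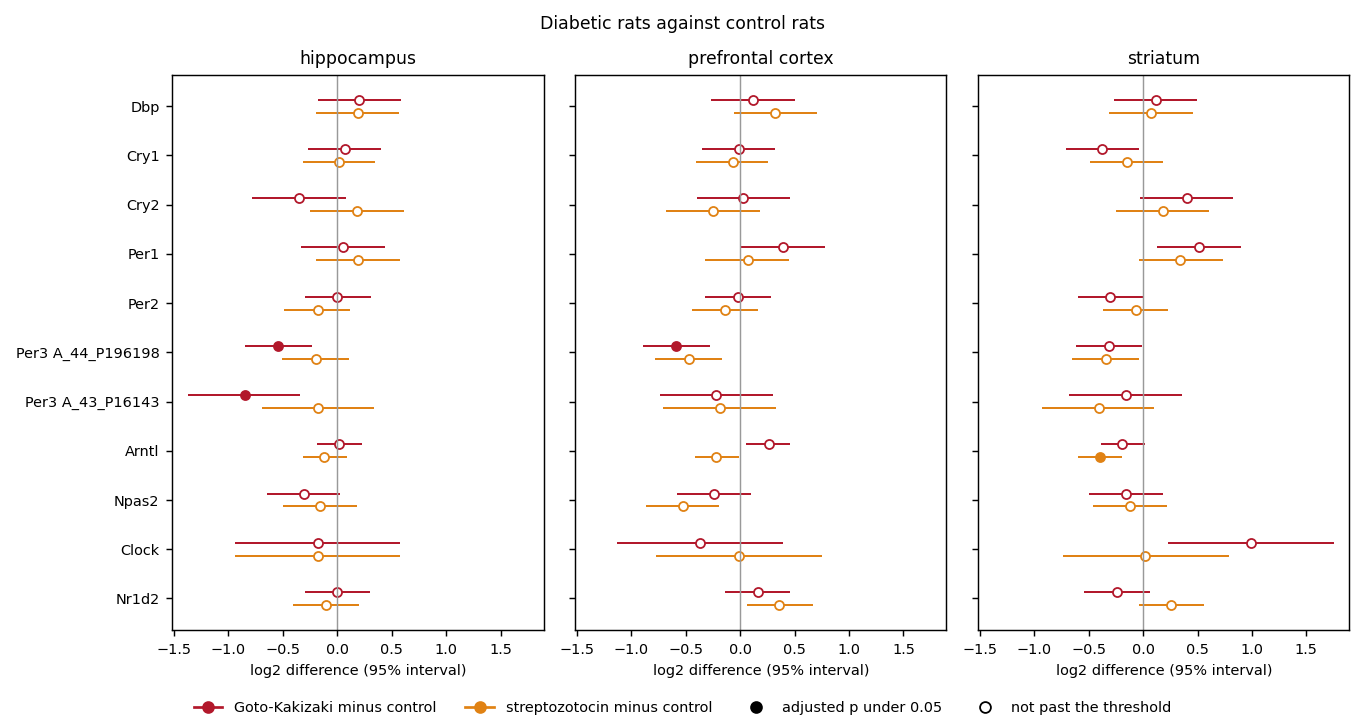
Difference of each of the 11 tested member probes between a diabetic group and controls within a region (log2, horizontal axis), with the 95% confidence interval of the limma fit, and with filled points for an adjusted p under 0.05. The filled points are Per3 in Goto-Kakizaki hippocampus (-0.85 and -0.54) and prefrontal cortex (-0.59) and Arntl in streptozotocin striatum (-0.40).

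Whether a diabetic effect differed between regions was tested as an interaction. None of the 11 member probes passed in any of the 6 such tests. For the Goto-Kakizaki effect 0.298% of all probes passed for prefrontal cortex minus hippocampus, 0.721% for striatum minus hippocampus and 0.167% for striatum minus prefrontal cortex, and 0, 2 and 2 members were under an unadjusted p of 0.05. For the streptozotocin effect 0%, 1.59% and 0% of all probes passed in the same order, and 1, 1 and 0 members were under an unadjusted p of 0.05. For striatum minus prefrontal cortex the Goto-Kakizaki effects differed by -0.44 in Arntl (adjusted p = 0.19) and by 1.36 in Clock (adjusted p = 0.29), and for striatum minus hippocampus by 0.75 in Cry2 (adjusted p = 0.18). No clock gene was thus shown to differ between regions in its response to either model.

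Regions differed in most clock genes. Striatum was higher than hippocampus in 9 of 11 member probes in Goto-Kakizaki rats (39.8% of all probes passed, either way), in 6 in streptozotocin-treated rats (22.8%) and in 6 in controls (29.5%), and lower in none. Striatum against prefrontal cortex gave 5 higher and 2 lower in Goto-Kakizaki rats (34.9% of all probes passed), 3 higher and 1 lower in streptozotocin-treated rats (27.3%) and 4 higher and 1 lower in controls (25%). Prefrontal cortex was higher than hippocampus in 6 probes in Goto-Kakizaki rats (20.5%), 3 in streptozotocin-treated rats (17.6%) and 3 in controls (15.7%), and lower in none. The median size of the difference over the 11 probes was 0.84, 0.61 and 0.57 in Goto-Kakizaki, streptozotocin and control rats for striatum against hippocampus, beside 0.44, 0.28 and 0.37 over all probes. The 3 regions of an animal group came from the same 9 animals.

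Dbp stepped down from striatum to hippocampus in every animal group. In Goto-Kakizaki rats it was at 3.55, 4.36 and 3.62 in striatum, 2.71, 2.95 and 3.04 in prefrontal cortex and 2.38, 2.67 and 2.44 in hippocampus. In streptozotocin-treated rats it was at 3.75, 3.76 and 3.90 in striatum, 3.01, 3.13 and 3.17 in prefrontal cortex and 2.29, 2.69 and 2.44 in hippocampus. In controls it was at 3.52, 3.95 and 3.71 in striatum, 2.47, 2.84 and 3.04 in prefrontal cortex and 2.32, 2.21 and 2.33 in hippocampus. The order striatum, prefrontal cortex, hippocampus held without overlap between any neighbouring regions in all 3 animal groups. Striatum exceeded hippocampus by 1.35 (SE 0.18, fold 2.55, adjusted p = 6.6e-06) in Goto-Kakizaki, 1.33 (fold 2.51, adjusted p = 8.9e-06) in streptozotocin-treated and 1.44 (fold 2.71, adjusted p = 2.8e-06) in control rats, and exceeded prefrontal cortex by 0.95, 0.70 and 0.95 (adjusted p = 0.00036, 0.0058 and 0.00042). The step from prefrontal cortex to hippocampus passed only in streptozotocin-treated rats (0.63, adjusted p = 0.017), and not without streptozotocin hippocampus pool 1 (0.54, adjusted p = 0.093) or 3 (0.62, adjusted p = 0.055) or prefrontal pool 3 (0.60, adjusted p = 0.062).

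Cry1 followed the same order. Its levels were 1.56, 1.83 and 1.60 in Goto-Kakizaki striatum, 1.22, 0.99 and 1.18 in Goto-Kakizaki prefrontal cortex and 0.72, 0.87 and 0.90 in Goto-Kakizaki hippocampus. Controls had 1.79, 2.41 and 1.94 in striatum, 1.01, 1.16 and 1.26 in prefrontal cortex and 0.78, 0.93 and 0.58 in hippocampus. No regions overlapped in either animal group, and in streptozotocin-treated rats only prefrontal cortex and hippocampus did. Striatum was above hippocampus by 0.84 (adjusted p = 0.00027) in Goto-Kakizaki, 1.11 (adjusted p = 1.2e-05) in streptozotocin-treated and 1.28 (adjusted p = 1.8e-06) in control rats, and above prefrontal cortex by 0.54, 0.82 and 0.90 (adjusted p = 0.011, 0.00033 and 0.00014). The first of these no longer passed without Goto-Kakizaki prefrontal cortex pool 2 (0.47, adjusted p = 0.05).

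Per3 A_44_P196198, whose levels are given above, was higher in striatum than in hippocampus by 1.13 (SE 0.14, fold 2.19, adjusted p = 2.9e-06) in Goto-Kakizaki, 0.76 (fold 1.7, adjusted p = 0.00037) in streptozotocin-treated and 0.91 (fold 1.88, adjusted p = 4.6e-05) in control rats. It was higher than in prefrontal cortex by 0.97, 0.83 and 0.70 (adjusted p = 1.7e-05, 0.00012 and 0.00081). No striatal pool of any animal group was as low as a pool of the other 2 regions in the same animal group. Between prefrontal cortex and hippocampus this probe did not pass, with differences of 0.16 in Goto-Kakizaki, -0.06 in streptozotocin-treated and 0.21 in control rats. Per3 A_43_P16143 was at least 2.58-fold higher in striatum than in hippocampus of Goto-Kakizaki rats and passed in controls at 0.90, while 0.66 in streptozotocin-treated rats (adjusted p = 0.056) did not pass. In Goto-Kakizaki rats it was also higher in striatum than in prefrontal cortex by 0.64 (adjusted p = 0.046) and at least 1.66-fold higher in prefrontal cortex than in hippocampus. The first of these calls was lost without any 1 of the 6 pools, and the other without hippocampus pool 1 (0.78, adjusted p = 0.053). A_43_P16143 kept only the last of these calls with slide as a block (0.87, adjusted p = 0.0087). Striatum against hippocampus then gave 0.92 (adjusted p = 0.20) in Goto-Kakizaki and 0.43 (adjusted p = 0.34) in control rats, and 0.89 in streptozotocin-treated rats passed (adjusted p = 0.015). Striatum against prefrontal cortex of Goto-Kakizaki rats gave 0.05 (adjusted p = 0.96).

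Per2 ran against this order and was highest in the prefrontal cortex. It was at 1.05, 0.65 and 1.12 in striatum, 1.79, 1.47 and 1.92 in prefrontal cortex and 1.36, 1.17 and 1.21 in hippocampus of Goto-Kakizaki rats, and at 1.15, 1.44 and 1.13, at 1.67, 1.92 and 1.65, and at 1.18, 1.32 and 1.22 in the same regions of controls. The prefrontal pools lay above those of both other regions in each animal group. The difference of striatum from prefrontal cortex was -0.79 (adjusted p = 0.00017) in Goto-Kakizaki, -0.44 (adjusted p = 0.023) in streptozotocin-treated and -0.51 (adjusted p = 0.0098) in control rats, and prefrontal cortex was higher than hippocampus by 0.48, 0.55 and 0.51 (adjusted p = 0.018, 0.0076 and 0.016). Single pools left out ended the call of Per2 in streptozotocin striatum against prefrontal cortex (streptozotocin striatum pools 2 and 3, prefrontal pools 1 and 3, adjusted p from 0.066 to 0.089), in control striatum against prefrontal cortex (prefrontal pool 2, -0.42, adjusted p = 0.06), and in prefrontal cortex against hippocampus of Goto-Kakizaki rats (prefrontal pool 3, hippocampus pools 2 and 3, adjusted p from 0.06 to 0.11) and controls (prefrontal pool 2, hippocampus pools 1 and 3, adjusted p from 0.051 to 0.092). Of these 6 Per2 calls 5 were lost with slide as a block, all 3 of striatum against prefrontal cortex (-0.68, -0.33 and -0.44, adjusted p = 0.15, 0.22 and 0.054) and those of prefrontal cortex against hippocampus in Goto-Kakizaki (0.32, adjusted p = 0.18) and control rats (0.45, adjusted p = 0.17), and the one in streptozotocin-treated rats was kept (0.55, adjusted p = 0.0083). Striatum and hippocampus did not differ by the test for Per2, at -0.31 (95% confidence interval -0.60 to -0.01) in Goto-Kakizaki, 0.11 (-0.18 to 0.40) in streptozotocin-treated and 0 (-0.30 to 0.29) in control rats.

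Of the activators, Arntl and Npas2 had their lowest mean levels in the hippocampus in every animal group. Arntl was higher in striatum than in hippocampus by 0.40, 0.33 and 0.61 in Goto-Kakizaki, streptozotocin-treated and control rats (adjusted p = 0.0025, 0.014 and 4.2e-05) and higher in prefrontal cortex than in hippocampus by 0.64, 0.31 and 0.41 (adjusted p = 3.3e-05, 0.025 and 0.0041). Every hippocampal pool lay below every pool of the other regions in its animal group. Between striatum and prefrontal cortex Arntl was -0.25 in Goto-Kakizaki (adjusted p = 0.05, just under the threshold before rounding), 0.02 in streptozotocin-treated and 0.20 in control rats. Npas2 was higher in striatum than in hippocampus by 0.72, 0.62 and 0.57 (adjusted p = 0.0013, 0.0066 and 0.0093) and higher in prefrontal cortex than in hippocampus in Goto-Kakizaki (0.70, adjusted p = 0.003) and control rats (0.63, adjusted p = 0.008), with 0.26 (adjusted p = 0.32) in streptozotocin-treated rats. Of these calls, Arntl in streptozotocin-treated rats was lost without striatum pool 1 (0.26, adjusted p = 0.083) for striatum, and without hippocampus pools 2 or 3 or prefrontal pools 1 or 2 (adjusted p from 0.067 to 0.12) for prefrontal cortex. Npas2 in controls was lost without hippocampus pool 1 in both comparisons (0.42, adjusted p = 0.073, and 0.48, adjusted p = 0.07) and without striatum pool 3 (0.44, adjusted p = 0.062). The Arntl difference between striatum and prefrontal cortex of Goto-Kakizaki rats was lost without any 1 of the 6 pools.

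In the fit without slide Clock was called in Goto-Kakizaki rats alone, where it was at least 2.49-fold higher in striatum than in hippocampus (measured difference 1.34, adjusted p = 0.0061) and higher than in prefrontal cortex by 1.49 (adjusted p = 0.0031). With slide as a block these differences became -0.46 and -0.22, both not passing, and all 3 Goto-Kakizaki striatum arrays lay on slide 4, which held only 1 other array, of the control striatum. In that same fit Clock passed in streptozotocin-treated rats, at 0.80 (adjusted p = 0.0076) against hippocampus and 0.58 (adjusted p = 0.043) against prefrontal cortex, and was lower in striatum than in hippocampus of controls (-0.82, adjusted p = 0.024). Without slide Cry2 and Per1 also passed only in Goto-Kakizaki rats, higher in striatum than in hippocampus by 0.85 (adjusted p = 0.0025) and 0.60 (adjusted p = 0.013), and higher in prefrontal cortex than in hippocampus by 0.97 (adjusted p = 0.0014) and 0.62 (adjusted p = 0.018). Nr1d2 was higher in striatum than in hippocampus of streptozotocin-treated rats (0.61, adjusted p = 0.0026) and than in prefrontal cortex of controls (0.42, adjusted p = 0.033). Leaving out single pools ended both Per1 calls (hippocampus pool 3 in either, hippocampus pool 2 or prefrontal pool 3 in one, striatum pool 2 in the other, adjusted p from 0.068 to 0.11) and the last Nr1d2 call (prefrontal pools 1 and 2, striatum pools 2 and 3, adjusted p from 0.055 to 0.19). Passing in 1 animal group does not set it apart from the others: none of these genes passed a test of the interaction of region with either model against controls.

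Counted over animal groups, 5 of 11 member probes were higher in striatum than in hippocampus in all 3 (Per3 A_44_P196198, Cry1, Dbp, Npas2 and Arntl), where 12.3% of all probes passed in the same direction in all 3. For striatum against prefrontal cortex there were 3 higher (Per3 A_44_P196198, Cry1 and Dbp) and 1 lower (Per2), beside 15% of all probes. For prefrontal cortex against hippocampus there were 2 higher (Per2 and Arntl), beside 8.39% of all probes. Leaving out each pool in turn kept 33 of the 49 region calls throughout, among them every call of Dbp and of Per3 A_44_P196198 between striatum and another region, and ended 16 in at least 1 case. With slide as a block 25 of the 49 were kept and 24 were lost. Dbp kept its striatal excess over hippocampus in all 3 animal groups (1.47, 1.46 and 1.27, adjusted p = 0.031, 0.00022 and 0.0046, in Goto-Kakizaki, streptozotocin-treated and control rats), and so did Per3 A_44_P196198 (1.28, 0.71 and 1.00, adjusted p = 0.031, 0.021 and 0.009). Cry1 kept it in streptozotocin-treated (1.37, adjusted p = 5.1e-05) and control rats (1.07, adjusted p = 0.0034) but not in Goto-Kakizaki rats (0.84, adjusted p = 0.13). Npas2 lost it in Goto-Kakizaki, streptozotocin-treated and control rats (0.76, 0.58 and 0.64, adjusted p = 0.25, 0.082 and 0.12), while Arntl lost it in Goto-Kakizaki (0.25, adjusted p = 0.53) and streptozotocin-treated rats (0.32, adjusted p = 0.11) and kept it in controls (0.60, adjusted p = 0.014). In Goto-Kakizaki rats Cry2 and Per1 lost it as well (0.53 and 0.78, adjusted p = 0.51 and 0.29), and striatum against prefrontal cortex was lost for Dbp (1.01, adjusted p = 0.096), Cry1 (0.69, adjusted p = 0.17) and Arntl (-0.33, adjusted p = 0.38). For prefrontal cortex against hippocampus, Per1 in Goto-Kakizaki rats (0.55, adjusted p = 0.096) and Npas2 (0.64, adjusted p = 0.096) and Arntl (0.42, adjusted p = 0.061) in controls were lost.

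**Figure D4:**
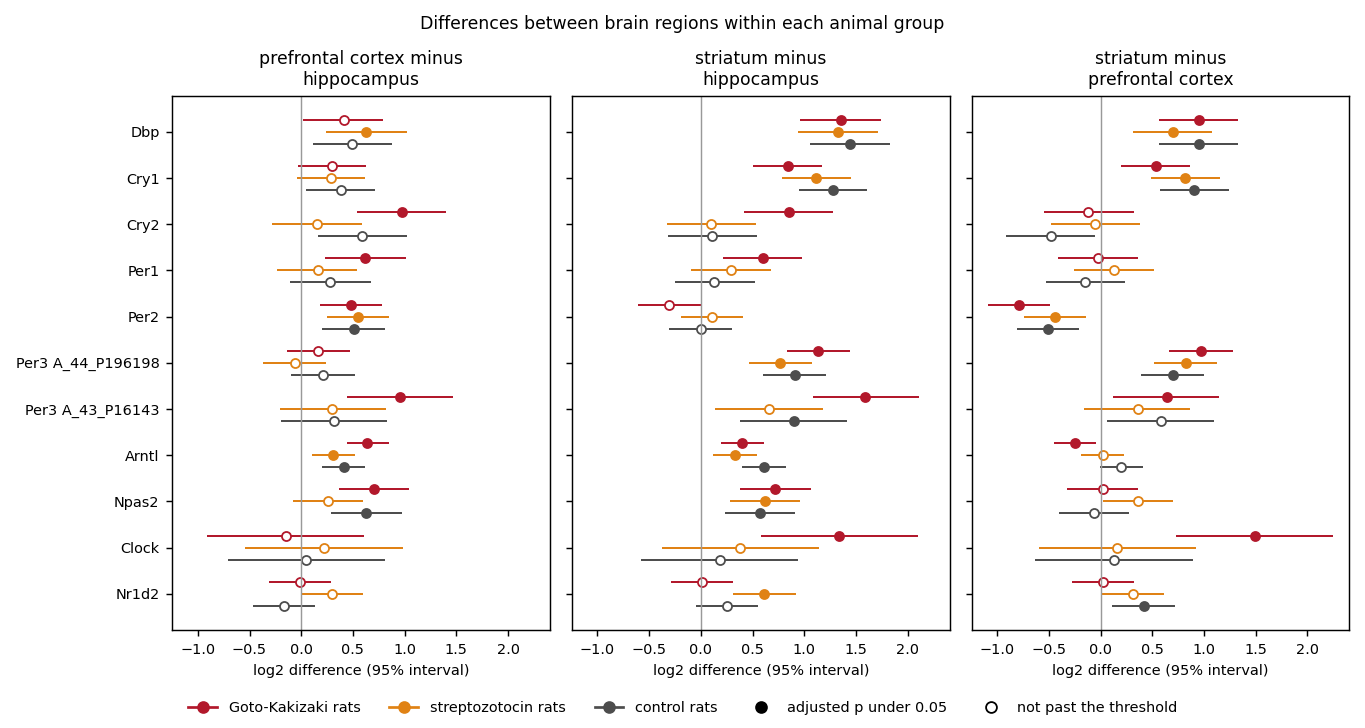
Difference of each tested member probe between brain regions within an animal group (log2, horizontal axis), with the 95% confidence interval of the limma fit and filled points for an adjusted p under 0.05. Dbp, Cry1 and Per3 A_44_P196198 lie right of 0 in both comparisons of striatum in every animal group, and Per2 lies left of 0 against prefrontal cortex.

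Among other transcription factors of the clock, 9 of 11 listed genes had a probe and 8 were tested. Against controls 0, 1 and 2 of the 8 were higher in the same 3 regions (hippocampus, then prefrontal cortex, then striatum) of Goto-Kakizaki rats, 0, 1 and 1 in streptozotocin-treated rats, and none was lower. All but 1 of these calls were Bhlhe40 (Dec1), a repressor that competes for E-boxes. It averaged 1.58 in Goto-Kakizaki and 0.58 in control prefrontal cortex, a difference of 1.01 (adjusted p = 1.2e-05), and differed by 0.67 (adjusted p = 0.001) in Goto-Kakizaki striatum, by 0.49 (adjusted p = 0.038) in streptozotocin prefrontal cortex and by 0.46 (adjusted p = 0.048) in streptozotocin striatum. In the hippocampus it gave 0.39 (adjusted p = 0.079) in Goto-Kakizaki and 0.17 (adjusted p = 0.62) in streptozotocin-treated rats. The other call was Tef, a relative of Dbp, higher by 0.85 (adjusted p = 0.033) in Goto-Kakizaki striatum. Genes of this and the following lists were not put through the alternatives. Whether their calls hold with slide as a block or without single pools was therefore not tested. Goto-Kakizaki and control prefrontal cortex shared no slide, nor did streptozotocin and control striatum.

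Of 11 kinases, ubiquitin ligases and partners tested, Usp2, a deubiquitinating enzyme of clock proteins, was higher in Goto-Kakizaki prefrontal cortex by 0.88 (adjusted p = 0.0017) and lower in streptozotocin hippocampus, at -0.73 (adjusted p = 0.023). Fbxw11, a ubiquitin ligase subunit that targets Period proteins, was higher in streptozotocin prefrontal cortex by 1.26 (adjusted p = 0.017). Each of these calls was 1 of 11 genes. Of all probes, 8.8% passed in Goto-Kakizaki prefrontal cortex, 2.2% in streptozotocin hippocampus and 2.67% in streptozotocin prefrontal cortex. No other gene of this list passed against controls. Neither did any of the 5 tested glucocorticoid-induced genes, in comparisons where 2.2 to 13.8% of all probes passed.

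Activity-induced genes, several of which respond to stimuli that also reset the clock, were counted because they can move with the state of the animal at killing. Of 8, 1 was higher in Goto-Kakizaki hippocampus (Fos, 0.61, adjusted p = 0.03) and 4 were lower in Goto-Kakizaki striatum: Nr4a1 (-0.65, adjusted p = 0.0064), Egr1 (-0.68, adjusted p = 0.0091), Egr2 (-1.13, adjusted p = 0.019) and Dusp1 (-0.66, adjusted p = 0.031). None passed in Goto-Kakizaki prefrontal cortex or in streptozotocin-treated rats. Of all probes, 5.11% passed in Goto-Kakizaki hippocampus, 8.8% in Goto-Kakizaki prefrontal cortex, 13.8% in Goto-Kakizaki striatum and 2.2 to 3.25% in streptozotocin-treated rats. Fos and Dusp1 were named after their values were seen. Their part in the clock gene values was not tested.

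Across the 27 arrays, the genes whose levels ran most like a member's were picked by correlation. Whether they differed between regions themselves was not tested. For Dbp they were Gpsm1, Dscr1l1 and Slc18a3 (Pearson r of 0.96 each, over 13009 candidate probes), for Cry1 B3gnt1_predicted (0.96), Rbp4 (0.95) and Dlx5 (0.94), and for Per3 A_44_P196198 Mxi1 (0.94), Pdlim3 (0.93) and Gad1 (0.92). Per2 was closest to Sms (0.89), Arntl to Car8 (0.85), Npas2 to Lrrtm3_predicted (0.91), Cry2 to Cd6 (0.94), Clock to Cacna1e (0.95), Per1 to RT1-S3 (0.82) and Nr1d2 to Smu1 (0.75). Between members, Cry1 and Dbp were closest (0.91), and their deviations from the group means correlated at 0.55. Per3 A_44_P196198 correlated with Cry1 at 0.78 and with Dbp at 0.75, and Arntl with Npas2 at 0.76. For these pairs the deviations from the group means correlated less, at -0.3, 0.33 and 0.39 in the same order. The 27 arrays include 3 regions and 7 slides, which all of these values share.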

How the data were processed

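The authors hybridised each pool of rat RNA in a single colour to an Agilent whole-genome array and extracted it with Feature Extraction 9.1 (submitters' processing notes). The deposited processed signal is, per the file headers, a spot intensity with fitted background subtracted, not scaled between arrays. Probes are named by the array's own annotation. Here the log2 of this intensity minus that of the array's 75th percentile was taken, after leaving out 1417 control spots and 2635 values marked as outliers, none of them on member probes. For 32078 probes, limma 3.58.1 (R 4.3.3, data.table, version 1.17.8) fitted a linear model of the 9 group means with 18 residual and 2.56 prior degrees of freedom, and p-values were adjusted by Benjamini-Hochberg within each comparison. Its shared spread covers groups whose median SD of a probe ran from 0.0947 to 0.294. The methods' additional demand of a 2-fold change is an alternative. The script was tested on simulated data. Python 3.11.15 (with pandas 2.3.3, numpy 2.4.6 and, for plots, matplotlib 3.10.9) handled the remaining steps.

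Every member probe is named, and of the pathway lists the genes that passed against controls, up to 3 a list. The members, lists and tests were chosen with earlier results of these data known. The comparisons of regions within Goto-Kakizaki and streptozotocin-treated rats and the counts over all 3 animal groups were chosen after seeing the data. Alternatives were read for the member probes and not for the genes of the other lists. They changed the normalization, background correction, filter, fold threshold, samples in the fit, slide and replicate blocks, and test, and left out each pool in turn. Equal replicate numbers paired the pools (correlation of deviations over 0.1 for every number) only for streptozotocin against control prefrontal cortex (0.494, 0.475 and 0.717) and for prefrontal cortex against hippocampus of streptozotocin-treated rats (0.527, 0.327 and 0.719), where equal numbers share a slide. It is not stated whether equal numbers hold the same animals.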

Additional observations from a re-analysis of the deposited data

Results flagged for a closer look

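In Arntl, all 3 Goto-Kakizaki pools lay above all 3 control pools in the prefrontal cortex (difference 0.26) and below all 3 in the striatum (difference -0.19). The Goto-Kakizaki effect thus differed between striatum and prefrontal cortex by -0.44 (SE 0.13), which drew attention because the pools moved in opposite directions. The limma test of the interaction gave an unadjusted p of 0.0034 and an adjusted p of 0.19, so that the difference did not pass over all probes.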

How the results depend on the processing

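With 3 pools per group, counts of member probes past the threshold are small, and most moved under some alternative. Goto-Kakizaki against control hippocampus gave 2 members in the limma fit, 0 with the 50th percentile, quantile normalization, normexp, a 2-fold threshold or the adjusted methods' t-test, 1 of the 2 without a filter, with slide as a block or with the replicate block, 1 with the region fitted alone (Cry2, while both Per3 probes were lost, adjusted p = 0.055 and 0.061), 3 with the 2 groups alone (both Per3 probes and Cry2), and 0 to 1 on leaving out single pools. Goto-Kakizaki against control prefrontal cortex gave 1, 2 with the 50th percentile or the unadjusted t-test, 0 with normexp, slide as a block, the 2-fold threshold, the 2 groups alone or the adjusted t-test, and 0 to 2 without single pools. In the striatum it gave 0, and 0 to 2 without single pools. Streptozotocin against control gave 0 in the hippocampus (2 by the unadjusted t-test), 0 in the prefrontal cortex (1 by the unadjusted t-test) and 1 in the striatum, where quantile normalization, normexp, slide as a block, the 2-fold threshold, the region or the 2 groups alone and the adjusted t-test gave 0 and single pools left out gave 0 to 1. Goto-Kakizaki against streptozotocin gave 0 in the hippocampus (1 with the region or the 2 groups alone, 2 by the unadjusted t-test, 0 to 1 without single pools). In the prefrontal cortex it gave 1 (0 with the 2-fold threshold, the 2 groups alone or the adjusted t-test, 2 by the unadjusted t-test, 1 to 1 without single pools), and in the striatum 1 (0 with normexp, slide as a block, the 2-fold threshold, the region alone or the adjusted t-test, 2 by the unadjusted t-test, 0 to 1 without single pools). With the 2 groups alone the striatum also gave 1, but it was Clock (0.96, adjusted p = 0.0093), while Nr1d2 was lost (adjusted p = 0.091).

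Prefrontal cortex against hippocampus gave 6 members in Goto-Kakizaki rats (2 with normexp, 0 at 2-fold, 3 by the adjusted t-test, 4 to 6 without single pools), 3 in streptozotocin-treated rats (0 with normexp, at 2-fold and by the adjusted t-test, 1 to 2 without single pools) and 3 in controls (5 with quantile normalization, the replicate block, the 2 regions alone or the unadjusted t-test, 0 with normexp, slide as a block, 2-fold or the adjusted t-test, 1 to 4 without single pools). Striatum against hippocampus gave 9 in Goto-Kakizaki rats (4 with normexp, 2 with slide as a block, 4 at 2-fold, 4 by the adjusted t-test, 8 to 10 without single pools), 6 in streptozotocin-treated rats (2 with normexp, 2 at 2-fold, 1 by the adjusted t-test, 5 to 7) and 6 in controls (2 at 2-fold, 0 by the adjusted t-test, 5 to 6). Striatum against prefrontal cortex gave 7 in Goto-Kakizaki rats (2 with normexp, 1 with slide as a block, 1 at 2-fold, 1 by the adjusted t-test, 4 to 5), 4 in streptozotocin-treated rats (2 with normexp, 0 at 2-fold, 3 to 4) and 5 in controls (3 with normexp, 3 with the 2 groups alone, 0 at 2-fold, 0 by the adjusted t-test, 3 to 6). The replicate block moved no other count by more than 1.5 times, and the interactions gave 0 throughout.

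With slide as a block 4 member values that were called with or without it turned round: Nr1d2 between the models in the striatum (0.01), and Clock for striatum against hippocampus in controls (-0.82, adjusted p = 0.024, against 0.18 and not called without it) and in Goto-Kakizaki rats (-0.46) and for striatum against prefrontal cortex in Goto-Kakizaki rats (-0.22). The cause was not tested. Over all alternatives and comparisons, the sign also changed 233 times where neither value was called. The median of all probes moved by up to 0.18 with the 50th percentile, 0.47 with normexp and 0.12 without a filter. Faint signal limits Clock and Per3 A_43_P16143, whose levels on arrays not well above background are bounds.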
